A study of Mus musculus with 6 samples.

Results

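Integrins and the focal adhesion proteins that join them to the actin cytoskeleton were described in fibroblasts carrying the Delta9 allele of Lmna, set against wild-type fibroblasts. The genes were taken from a list of 36: 18 integrin chains, both discoidin domain receptors and 16 adhesion proteins and adaptors. A gene counted as measured where a probe set was annotated to its symbol alone, and the probe set of highest mean over the 6 arrays stood for it. By this rule 34 of the 36 had a value among 18193 genes in all, 17 integrin chains and 17 others. Itga11 and Ptk2 were not analysed here. The 3 Delta9 and the 3 WT samples were primary mouse fibroblasts of the strain C57bl6X129S3/J, called adult in the labels and post-natal in the design text, from lines derived from siblings. All had reached passage 3 and were then starved of serum for 72 hours, and each was hybridised to its own Affymetrix array. Zygosity, sex and the number of animals were not given in the sources used here, and the p-values here reflect only how far the samples of a group vary, which may be technical.

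Integrins are receptors made of an alpha and a beta chain that bind the extracellular matrix outside the cell. Their short tails bind talin and kindlin, which switch the receptor on, and through vinculin, filamin, alpha-actinin and tensin they hold on to actin. Kinases and adaptors such as FAK, paxillin and the ILK-PINCH-parvin complex carry signals from these sites. In fibroblasts, adhesions bear the tension by which cells pull on collagen, and that tension reaches the nuclear lamina through the cytoskeleton.

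The arrays had medians between 3.36 and 3.43 log2. Lmna itself read 7.07, 6.95 and 6.11 log2 in Delta9 and 8.35, 8.89 and 8.78 log2 in WT, a difference of -1.96 (moderated SE 0.28) with an adjusted p of 0.0899 (limma). With all 45037 probe sets tested, 2 other bright probe sets of Lmna differed by -3.42 and -2.05, with adjusted p of 0.0042 and 0.158 (limma), so the first of these passed the threshold. Whether these probe sets cover the stretch changed in Delta9 is not known from the sources used here, so they do not check the labels. The 10 fibroblast markers all lay above the median of the gene means, 4.79 log2, below which a gene is called dim here. Of 7 epithelial markers 6 were dim, and 14 of 15 macrophage markers were not. Poly-A spike-in signal was lowest on Delta9 replicate 3 and WT replicate 1, 5.20 and 4.85 log2, against 5.64 to 6.10 on the other 4 arrays. The difference between the 3' and 5' control probe sets, a sign of RNA quality, was 0.25, 0.23 and 0.57 log2 for Gapdh in Delta9 and 0.57, 0.49 and 0.51 log2 in WT. For actin it was 0.68, 0.51 and 0.84 log2 in Delta9 and 0.86, 0.82 and 1.41 log2 in WT.

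Among the 34 adhesion genes, the integrins Itga8, Itga1 and Itga10 had lower values in all 3 Delta9 samples than in any WT sample. So did the adaptor genes Parva, Vcl and Tns3. Itga8 and Itga10 were dim. Pxn, which encodes paxillin, had higher values in all 3. None of the 34 passed the threshold of an adjusted p of 0.05 (limma, adjusted over 18193 genes), where 11 genes did, a background of 0.0605%, or 0.055% lower and 0.0055% higher in Delta9. At an unadjusted p under 0.05, 6 of the 34 were lower and 1 was higher, against a background of 6.06% lower and 4.54% higher. The groups did not overlap for 10 of the 34, 9 lower and 1 higher in Delta9, the other lower ones being Itgav, Ddr1 and Ddr2. Over all genes the groups did not overlap for 17.3%, with 9.99% lower and 7.27% higher.

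Most adaptors had lower values in Delta9, and the integrin chains were nearly evenly divided. Of the 17 adaptors and discoidin receptors, 15 had lower values in Delta9 and Tln1 and Pxn higher ones, with a median difference of -0.28 log2. Of the 17 integrin chains, 9 were lower and 8 higher, with a median of -0.04. Over all genes 53.2% were lower, with a median of -0.01. All 17 adaptors and discoidin receptors lay above the median of the gene means, as did 9 of the 17 integrin chains. Among bright genes alone 47.3% were lower in Delta9. Of the 9 bright integrin chains 6 were lower, with a median of -0.08. The contrast between the 2 classes was not seen with Delta9 replicate 3 and WT replicate 3 both left out, a setting chosen after seeing the data. There 7 of the 17 integrin chains were lower, with a median of 0.07, and 8 of the 17 adaptors and discoidin receptors.

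The counts for the adaptors moved with 1 sample of each group. Delta9 replicate 3 held the lowest of the 6 values for 15 of the 17 adaptors and discoidin receptors, which it did for 25.1% of all genes. WT replicate 3 held the highest value for 12 of the 17, and for 27.2% of all genes. Without Delta9 replicate 3, 10 of the 17 were lower, with a median of -0.07. Without WT replicate 3, 12 were lower, with a median of -0.13. With both left out, an alternative chosen after seeing the data, 8 were lower and the median was 0.05. The counts also moved with all 6 arrays kept: 11 were lower with array weights, with a median of -0.13. With the mean of all probe sets of a gene 13 were lower, with a median of -0.19. In the 4 arrays of higher spike-in signal 12 of the 17 were lower, with a median of -0.18, and between Delta9 replicate 3 and WT replicate 1, a pair with no test, 16 were lower, with a median of -0.48. Delta9 replicate 3 also had the highest Gapdh 3' to 5' difference of the Delta9 arrays, and WT replicate 3 the highest actin one of the 6; their part in these counts was not tested.

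**Figure D1:**
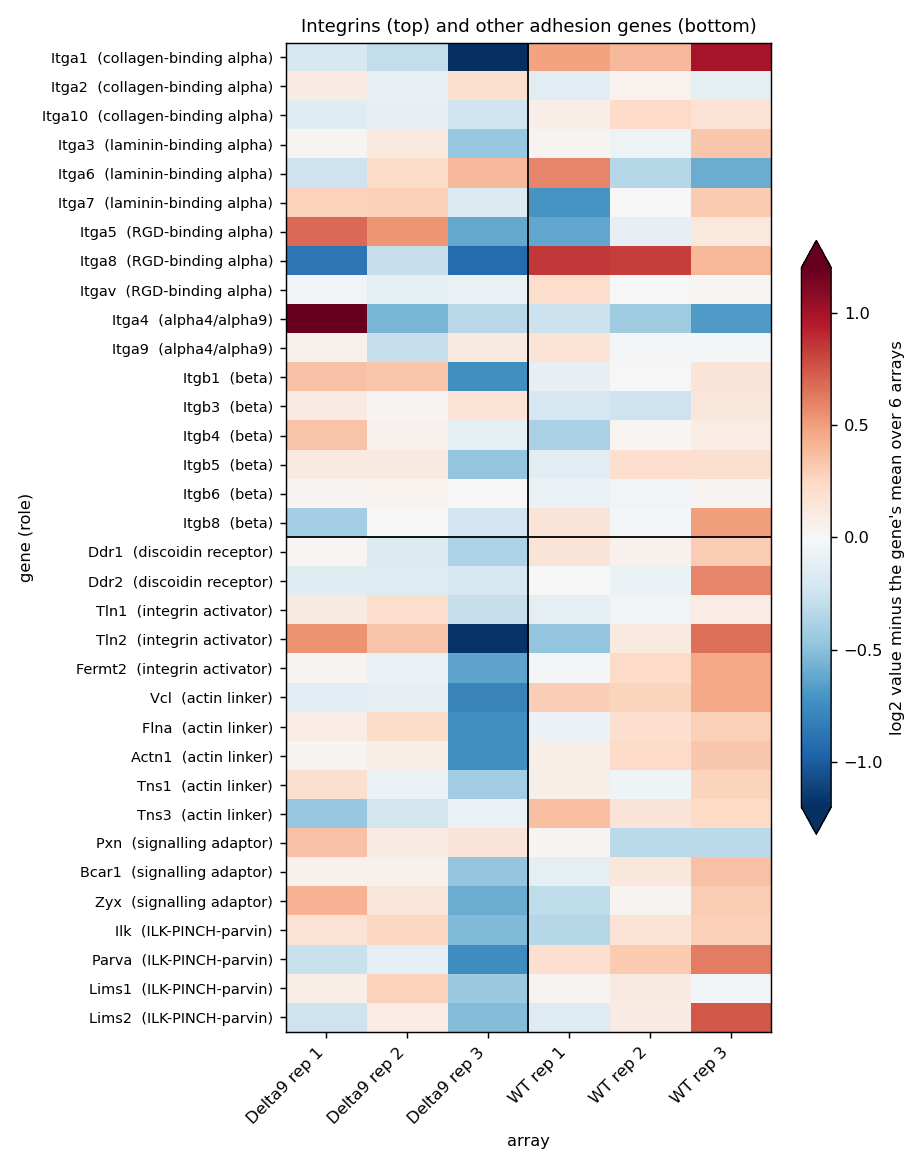
Log2 value of each of the 34 adhesion genes on each of the 6 arrays, minus that gene's mean over the arrays. Columns are the 3 Delta9 and then the 3 WT arrays, rows are genes with their roles, integrin chains above the line; the colour scale ends at 1.2 in each direction, and values beyond it take the end colour. The column of Delta9 replicate 3 is blue in 16 of the 17 lower rows, Pxn being the exception, and holds the lowest value in 15 of them.

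Promoter sequences were at hand for 27 of the 36 genes, in 36 windows of 300 bases (RefSeq, GRCm38.p6). They were searched for the CArG box, the site read by serum response factor, which has the same form on each strand, and for GGAATG or its reverse complement CATTCC, the core read by TEAD factors. Another search was for TGANTCA, the AP-1 site, also on both strands, found in 4 of the 36 (Ddr1, Itga3, Itga9 and Zyx), or 11.1%, against 7.81% of all. The motifs do not overlap each other in the windows shown. A CArG box stood in 3 of the 36 windows, those of Vcl, Fermt2 and Itgb6, or 8.33%, against 1.63% of all 32851 windows. GGAATG stood in 4 of the 36, those of Vcl, Flna, Itga10 and Itgb1, or 11.1%, against 14.7% of all. A match is a run of letters and not a measured binding site. The windows of Vcl and Fermt2 are shown because they hold a CArG box and both genes had lower mean values in Delta9. For Fermt2 the groups overlapped. Itgb6, the other gene with a CArG box, was dim and differed by 0.05 (SE 0.06). Whether the motifs go with the differences was not tested. The windows of Itga8 and Itga1 are shown because these had the largest differences. Capitals mark the motifs. Vcl lies at chr14:20929148-20929447 (+), with the CArG box at bases 24 to 33 of the window and GGAATG at bases 108 to 113. Fermt2 lies at chr14:45530016-45530315 (-), with the CArG box at bases 47 to 56. The windows of Itga8, chr2:12301895-12302194 (-), and Itga1, chr13:115101915-115102214 (-), hold neither run of letters.
Vcl: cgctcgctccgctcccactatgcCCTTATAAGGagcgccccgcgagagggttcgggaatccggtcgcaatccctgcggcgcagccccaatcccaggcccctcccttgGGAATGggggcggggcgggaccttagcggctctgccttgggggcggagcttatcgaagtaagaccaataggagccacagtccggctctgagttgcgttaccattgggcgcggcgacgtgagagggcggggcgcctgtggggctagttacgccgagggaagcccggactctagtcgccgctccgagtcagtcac
Fermt2: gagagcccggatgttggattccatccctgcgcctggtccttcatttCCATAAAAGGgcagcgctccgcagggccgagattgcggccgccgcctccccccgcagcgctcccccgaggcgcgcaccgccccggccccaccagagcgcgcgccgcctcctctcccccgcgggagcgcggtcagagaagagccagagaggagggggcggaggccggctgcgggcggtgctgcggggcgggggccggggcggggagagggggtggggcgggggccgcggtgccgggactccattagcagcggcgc
Itga8: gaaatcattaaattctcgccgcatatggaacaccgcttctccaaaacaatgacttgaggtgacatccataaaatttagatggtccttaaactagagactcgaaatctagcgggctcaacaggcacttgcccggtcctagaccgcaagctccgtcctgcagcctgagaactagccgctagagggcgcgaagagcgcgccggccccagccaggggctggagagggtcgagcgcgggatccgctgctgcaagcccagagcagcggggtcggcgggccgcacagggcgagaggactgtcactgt
Itga1: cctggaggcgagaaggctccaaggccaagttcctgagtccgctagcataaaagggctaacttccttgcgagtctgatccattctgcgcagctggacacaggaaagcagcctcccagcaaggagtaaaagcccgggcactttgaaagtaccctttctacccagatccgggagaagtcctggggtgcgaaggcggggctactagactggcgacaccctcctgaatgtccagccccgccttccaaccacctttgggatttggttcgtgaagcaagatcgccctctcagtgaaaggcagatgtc

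Itga8, the alpha chain that pairs with beta1 to bind nephronectin and other RGD proteins, showed the largest difference of the integrins. It read 3.81, 4.40 and 3.75 log2 in Delta9, against 5.52, 5.50 and 5.07 log2 in WT. All 3 Delta9 values lay below all 3 WT values. The difference was -1.38 (SE 0.22, 95% interval -1.90 to -0.86), or 2.61-fold lower in Delta9, with an adjusted p of 0.115 (limma). It was lower under each of 18 alternative settings, from -1.59 to -0.65, and passed the threshold with array weights alone (adjusted p 0.0334). The gene was dim, at 3.98 log2 on average in Delta9, and its other probe set, dimmer still, differed by 0.07.

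Of the collagen-binding integrin chains, Itga1 and Itga10 had lower values in Delta9 and Itga2 a higher mean. Itga1, the alpha chain of the alpha1beta1 receptor for basement membrane and fibrillar collagens, read 6.56, 6.45 and 5.37 log2 in Delta9, against 7.23, 7.13 and 7.74 log2 in WT. The groups did not overlap, and Delta9 replicate 3 and WT replicate 3 were at the ends. The difference was -1.24 (SE 0.34), or 2.37-fold lower in Delta9, with an adjusted p of 0.293 (limma), and -0.87 without Delta9 replicate 3. Itga10, a collagen-binding chain typical of cartilage, was near the bottom of the scale, with 2.91, 2.96 and 2.81 log2 in Delta9 against 3.13, 3.28 and 3.22 log2 in WT. Its groups did not overlap either, and the difference was -0.32 (SE 0.09). Itga2, a further collagen-binding chain, was dim as well and differed by 0.13 (SE 0.11).

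Ddr1 and Ddr2, receptor tyrosine kinases that bind collagen without integrins, were lower in 3 of 3 Delta9 samples on the probe sets used. Ddr1 read 7.64, 7.45 and 7.25 log2 in Delta9 and 7.77, 7.67 and 7.93 log2 in WT, a difference of -0.34 (SE 0.15, adjusted p 0.491, limma). Its 3 other bright probe sets differed by -0.22, -0.18 and -0.0007, all with overlapping groups. Of all 7 other probe sets of Ddr1, 6 had a lower mean in Delta9. Ddr2, the form typical of fibroblasts, read 8.06, 8.06 and 8.01 log2 in Delta9 and 8.20, 8.14 and 8.80 log2 in WT. Its 3 Delta9 samples were close together, WT replicate 3 stood above the other WT samples, and the difference of -0.34 (SE 0.19) was -0.12 without WT replicate 3. A second bright probe set of Ddr2 differed by -0.16 with overlapping groups, at 7.46, 8.18 and 8.70 log2 in Delta9 and 9.09, 8.19 and 7.53 log2 in WT.

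**Figure D2:**
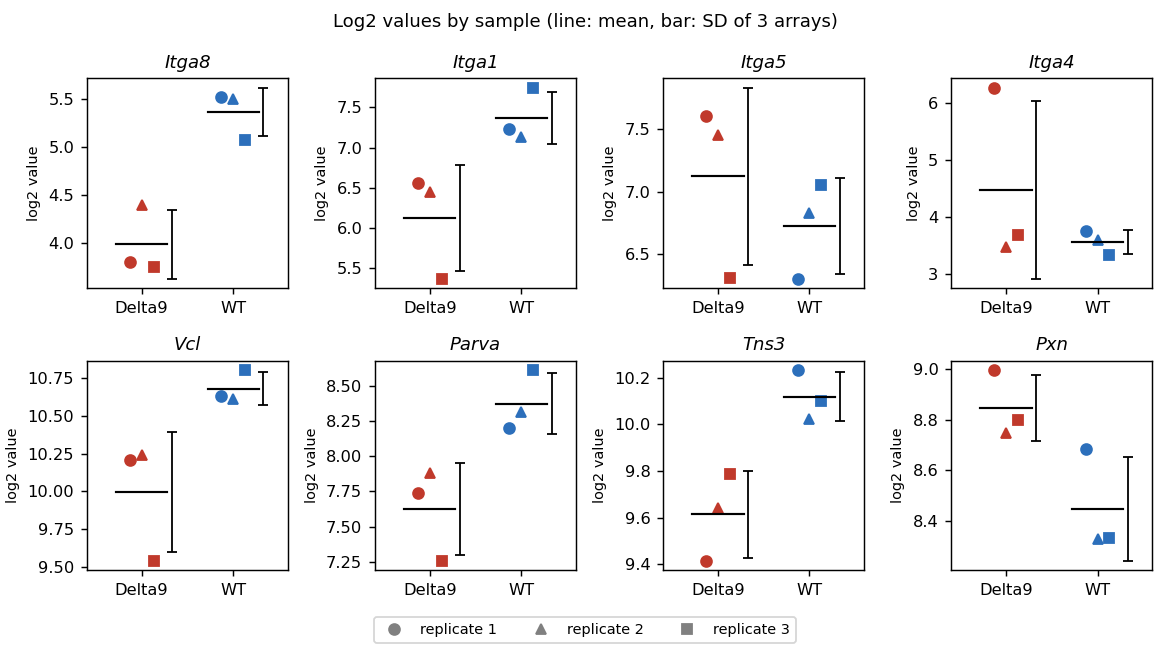
Log2 values of 8 adhesion genes in each sample, Delta9 left of WT, with a marker shape for each replicate, a line at the mean and a bar of 1 SD of 3 arrays; the vertical scales differ and do not start at 0. Itga8, Itga1, Vcl, Parva and Tns3 lie lower in all 3 Delta9 samples and Pxn higher, whereas Itga4 stands at 6.26 in Delta9 replicate 1 alone.

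The fibronectin receptor did not show a difference beyond the spread between replicates. Itga5, the alpha chain of the main fibronectin receptor, read 7.60, 7.46 and 6.31 log2 in Delta9 and 6.30, 6.83 and 7.05 log2 in WT. Delta9 replicates 1 and 2 were the highest of the 6, and Delta9 replicate 3 was level with the lowest. The difference was 0.39 (SE 0.37, 95% interval -0.47 to 1.26), and 0.80 without Delta9 replicate 3 (adjusted p 0.236, limma). Its partner Itgb1, the beta chain shared by most matrix-binding integrins, had the same pattern, with 8.39, 8.38 and 7.30 log2 in Delta9 and 7.94, 8.04 and 8.20 log2 in WT. Its difference was -0.04 (SE 0.30, 95% interval -0.73 to 0.66), and 0.32 without Delta9 replicate 3. A second bright probe set of Itgb1 differed by 0.12.

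The chains of the alpha-v integrins, which bind vitronectin and latent TGF-beta, had differences from -0.43 to 0.21, and none passed the threshold (limma). Itgav read 9.85, 9.77 and 9.81 log2 in Delta9 and 10.10, 9.89 and 9.91 log2 in WT. The groups did not overlap, and the difference was -0.16 (SE 0.11, 95% interval -0.41 to 0.10), and -0.09 without WT replicate 1. Its partner Itgb5, the beta chain of a vitronectin receptor, read 9.80, 9.80 and 9.22 log2 in Delta9 and 9.56, 9.89 and 9.89 log2 in WT, so the groups overlapped. That difference was -0.17 (SE 0.19), and the 3 other probe sets of Itgb5, all bright, ran from -0.23 to -0.07. Itgb3, another alpha-v partner, was dim, with 3.40, 3.33 and 3.47 log2 in Delta9 and 3.09, 3.04 and 3.43 log2 in WT, a difference of 0.21 (SE 0.13). Itgb8, whose dimer with alpha-v activates latent TGF-beta, was dim too, with 4.20, 4.60 and 4.37 log2 in Delta9 and 4.76, 4.58 and 5.10 log2 in WT, a difference of -0.43 (SE 0.18, adjusted p 0.472, limma). Its groups overlapped, and the difference was -0.28 without WT replicate 3. The epithelial Itgb6 was near the floor in every sample, at 2.33 to 2.36 log2 in Delta9 and 2.24 to 2.35 log2 in WT.

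Laminin-binding chains had overlapping groups. Itga6 differed by 0.24 (SE 0.33), Itga7, a chain of muscle and nerve, by 0.27 (SE 0.28) and Itga3 by -0.20 (SE 0.20). The beta4 chain Itgb4, which joins epithelial cells to laminin through hemidesmosomes, was dim and differed by 0.18 (SE 0.18). The chains of the alpha4 and alpha9 branch had overlapping groups as well: Itga9 differed by -0.08 (SE 0.16), and Itga4, typical of leukocytes and of some mesenchymal cells, read 6.26, 3.47 and 3.69 log2 in Delta9 and 3.76, 3.59 and 3.34 log2 in WT. Delta9 replicate 1 stood alone there, and the difference of 0.91 (SE 0.68) was 0.01 without it.

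**Figure D3:**
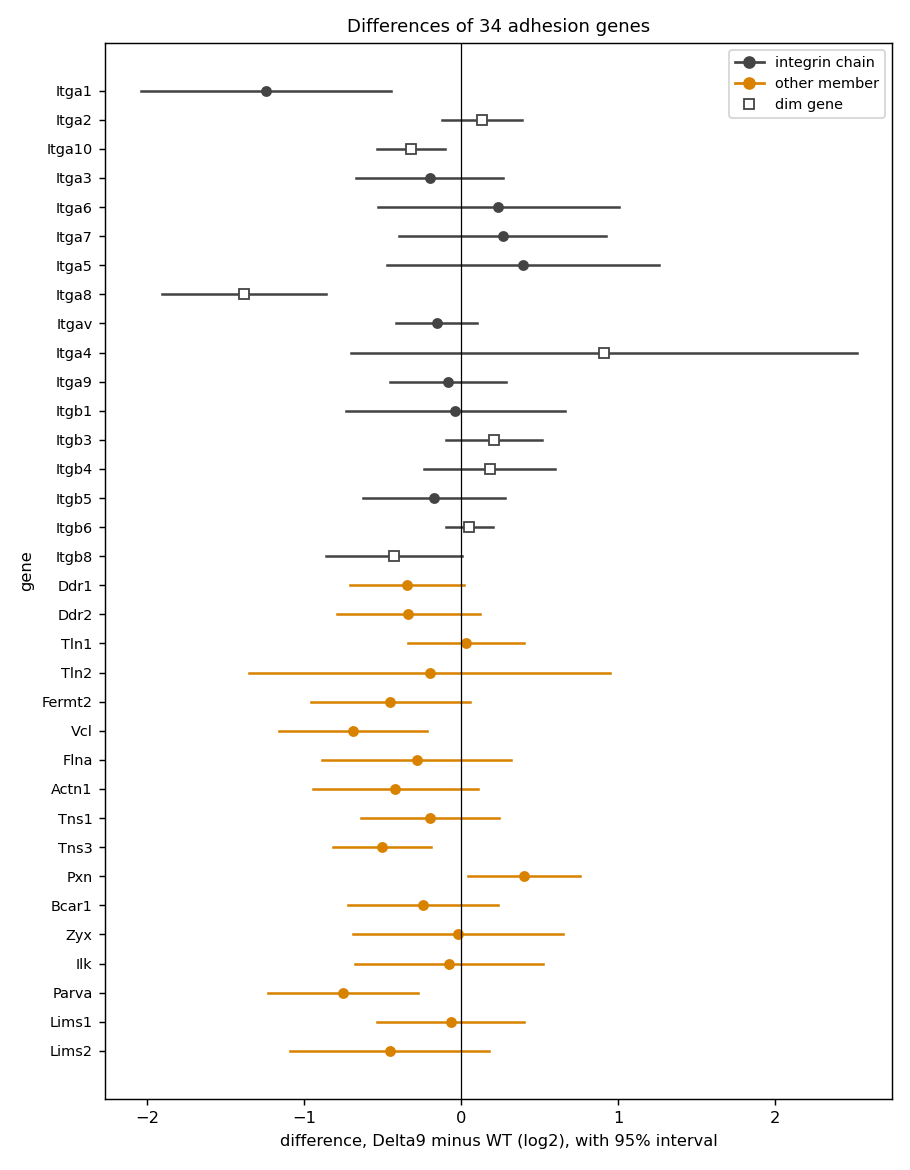
Difference of each of the 34 genes, Delta9 minus WT in log2, with its 95% interval from the moderated SE; grey marks are integrin chains, orange marks the other members, and open squares genes whose mean lies under 4.79 log2. The intervals of Itga8, Itga1, Itga10, Vcl, Tns3, Parva and Pxn leave out 0, and 15 of the 17 orange marks lie on the lower side.

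Of the proteins that tie integrins to actin, Vcl and Tns3 had lower values in 3 of 3 Delta9 samples. Vcl, vinculin, is recruited to talin under load. It read 10.21, 10.24 and 9.54 log2 in Delta9 and 10.63, 10.61 and 10.81 log2 in WT. Delta9 replicate 3 was the lowest, and the other Delta9 samples were also below every WT sample. The difference was -0.69 (SE 0.20), or 1.61-fold lower in Delta9 (adjusted p 0.321, limma), and -0.46 without Delta9 replicate 3; a dim probe set of Vcl differed by 0.11. Tns3, a tensin that binds integrin tails, read 9.42, 9.64 and 9.79 log2 in Delta9 and 10.23, 10.02 and 10.10 log2 in WT. Here Delta9 replicate 3 was the highest of its group. The difference was -0.50 (SE 0.13, adjusted p 0.286, limma), and -0.59 without that sample.

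The other actin linkers overlapped between the groups. Actn1, alpha-actinin 1, read 10.88, 10.94 and 10.11 log2 in Delta9 and 10.92, 11.09 and 11.18 log2 in WT, a difference of -0.42 (SE 0.22), and -0.15 without Delta9 replicate 3. Flna, the actin crosslinker filamin A, read 10.33, 10.47 and 9.51 log2 in Delta9 and 10.18, 10.45 and 10.53 log2 in WT. Its difference was -0.28 (SE 0.25), and 0.01 without Delta9 replicate 3, the only low sample. Tns1, tensin 1, differed by -0.20 (SE 0.19), by -0.04 without Delta9 replicate 3, and its 2 other probe sets, both bright, by 0.19 and 0.10.

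The integrin activators showed no shared direction. Tln1, the talin of most cells, read 9.35, 9.45 and 8.96 log2 in Delta9 and 9.13, 9.21 and 9.33 log2 in WT, a difference of 0.03 (SE 0.16, 95% interval -0.34 to 0.40). Tln2 had the widest spread of the adaptors, with 7.44, 7.25 and 5.72 log2 in Delta9 and 6.43, 7.02 and 7.56 log2 in WT. It differed by -0.20 (SE 0.49), and by 0.34 without Delta9 replicate 3. Fermt2, kindlin-2, read 9.06, 8.94 and 8.39 log2 in Delta9 and 9.00, 9.25 and 9.49 log2 in WT. The groups overlapped through WT replicate 1, the difference was -0.45 (SE 0.21, adjusted p 0.507, limma), and -0.25 without Delta9 replicate 3. A second bright probe set of Fermt2 differed by 0.09.

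In the ILK-PINCH-parvin complex, which bridges beta tails to actin, the members had unequal differences. Parva, alpha-parvin, read 7.74, 7.88 and 7.26 log2 in Delta9 and 8.20, 8.31 and 8.61 log2 in WT. The groups did not overlap, and the difference was -0.75 (SE 0.20), or 1.68-fold lower in Delta9 (adjusted p 0.293, limma), and -0.57 without Delta9 replicate 3. A second bright probe set of Parva had overlapping groups and differed by -0.28. Ilk, the pseudokinase at the centre of the complex, read 9.57, 9.65 and 8.87 log2 in Delta9 and 9.06, 9.57 and 9.69 log2 in WT, a difference of -0.07 (SE 0.25). The PINCH genes Lims1 and Lims2 differed by -0.06 (SE 0.20) and -0.45 (SE 0.27), with overlapping groups, and Lims2 by -0.20 without WT replicate 3.

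The signalling adaptors included the only member with higher values in 3 of 3 Delta9 samples. Pxn, the FAK-binding scaffold paxillin, read 9.00, 8.75 and 8.80 log2 in Delta9 and 8.68, 8.33 and 8.33 log2 in WT. WT replicate 1 came close to the lowest Delta9 sample. The difference was 0.40 (SE 0.15, adjusted p 0.421, limma), and a second bright probe set differed by 0.34. Zyx, zyxin, a LIM protein that moves to strained actin, read 9.17, 8.90 and 8.16 log2 in Delta9 and 8.44, 8.78 and 9.06 log2 in WT. Its difference was -0.02 (SE 0.28, 95% interval -0.69 to 0.65), 0.27 without Delta9 replicate 3 and 0.01 with the arrays centred on their medians. Bcar1, the stretch-sensitive scaffold p130Cas, differed by -0.24 (SE 0.20), and by -0.07 without Delta9 replicate 3.

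**Figure D4:**
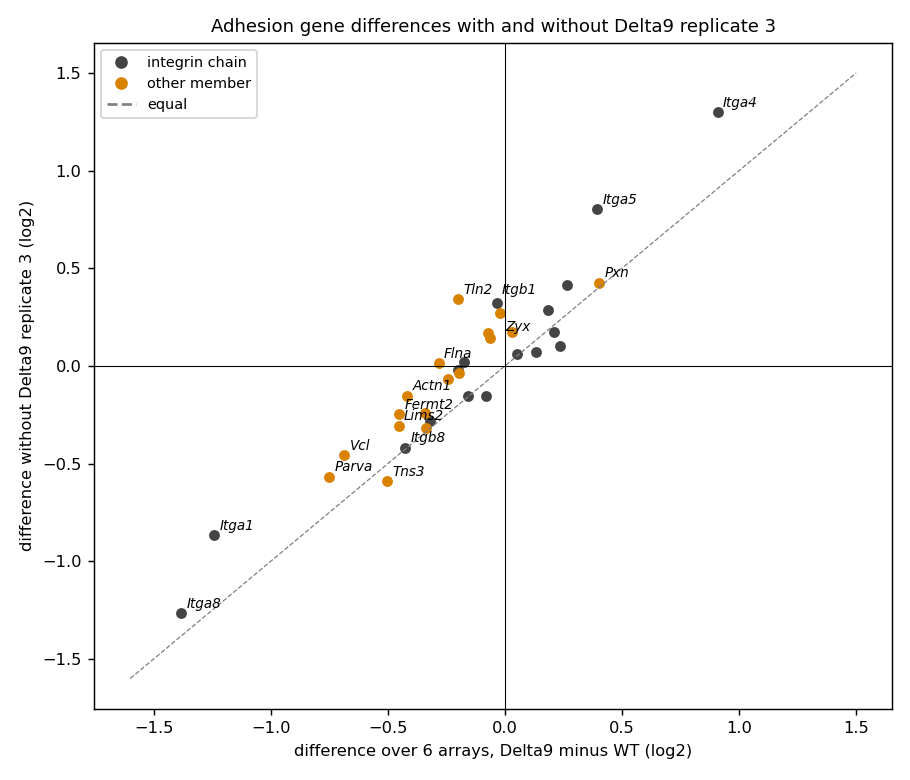
Difference of each of the 34 genes over all 6 arrays (horizontal, Delta9 minus WT, log2) against the difference without Delta9 replicate 3 (vertical, log2), with integrin chains in grey, the other members in orange and a dashed line of equality. Most points lie above the line; Tln2, Itgb1, Zyx, Flna, Itgb5, Ilk and Lims1 cross to the positive side, while Itga8, Itga1, Parva, Vcl and Tns3 stay below 0.

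Within the Delta9 group, replicate 3 lay below the mean of replicates 1 and 2 for 16 of the 17 adaptors and discoidin receptors, with a median of -0.55 log2, and for 13 of the 17 integrin chains, with a median of -0.32. Over all genes the median was -0.03. The myofibroblast and smooth muscle markers were lowest on the same array. Their 12 genes, 11 of them lower in Delta9, had mean levels of 8.65, 8.40 and 7.23 log2 on the Delta9 arrays and 8.39, 8.58 and 8.89 log2 on the WT arrays. Their median difference was -0.56; without Delta9 replicate 3, 6 of the 12 were lower, with a median of -0.01, and with both replicates 3 left out 4 were, with a median of 0.10. Macrophage markers had the opposite sign: 15 of 15 had a higher mean in Delta9, with a median difference of 1.09. Their mean levels were 9.66, 9.46 and 9.92 log2 in Delta9 and 9.50, 8.90 and 7.37 log2 in WT. The groups did not overlap for 7 of the 15, or 46.7%, against 17.3% of all genes, and 0 passed the threshold (lowest adjusted p 0.222, limma). Without WT replicate 3, 1 of the 15 was lower, with a median of 0.48, and with both replicates 3 left out 3 were, with a median of 0.34. The fibroblast markers, 10 of 10 lower with a median of -0.25, had mean levels of 10.22 to 10.38 log2 in Delta9 and 10.59 to 10.80 log2 in WT. Without Delta9 replicate 3, 8 of these 10 were lower and 2 passed the threshold (limma). In that fit 81 of all 18193 genes passed, 69 of them lower, against 11 over the 6 arrays. The pericyte markers were lower in 5 of 5, with a median of -0.37 and a lowest adjusted p of 0.0680 (limma), that of Notch3. Without Delta9 replicate 3, 3 of the 5 were lower, with a median of -1.06, and 2 were among those 81 genes. The part of these lists in the adhesion values was not tested, and in such bulk RNA fewer cells of a type and less RNA per cell cannot be told apart.

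**Figure D5:**
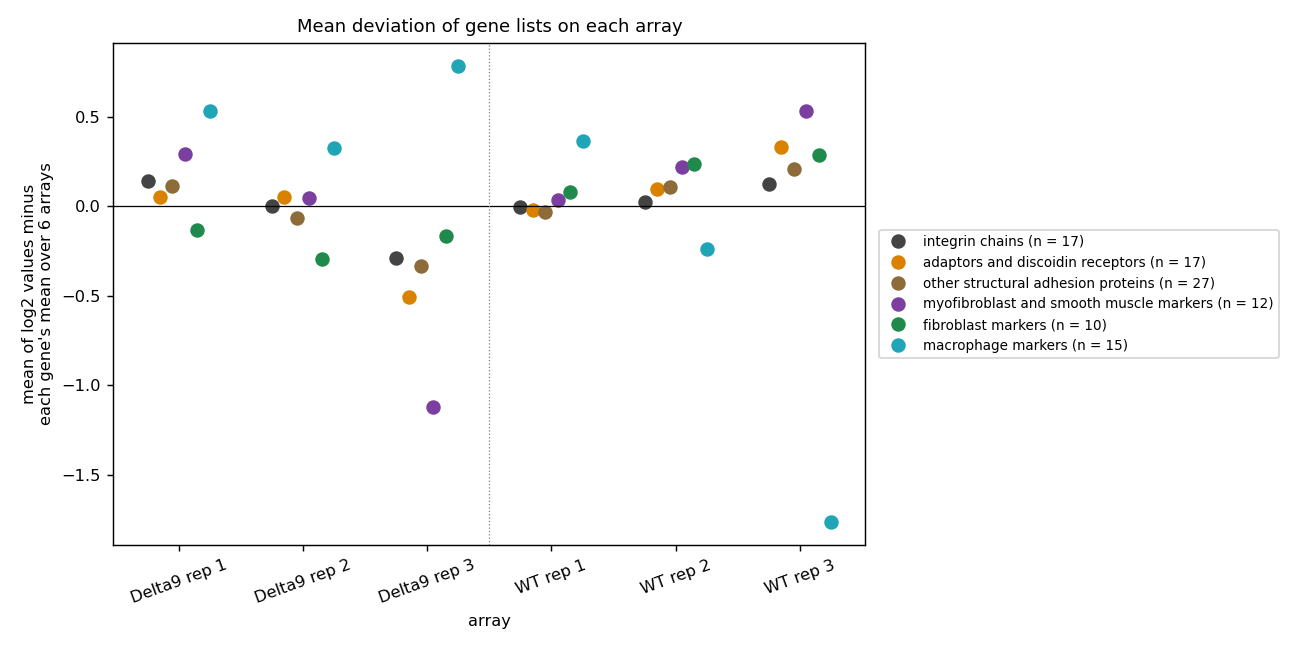
Mean over the genes of each list of the log2 value minus the gene's mean over the 6 arrays, by array, Delta9 arrays left of WT arrays; n is the number of genes measured. The adaptors and discoidin receptors stand at -0.51 on Delta9 replicate 3 and 0.33 on WT replicate 3, the myofibroblast markers at -1.12 and 0.53, and the macrophage markers at 0.79 and -1.77.

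The leukocyte integrins, kept apart from the list above, include Itgb2 and Itgam, which are also 2 of the 15 macrophage markers. Itgb2, the beta chain of the leukocyte integrins, read 7.38, 7.55 and 8.54 log2 in Delta9 and 7.56, 6.86 and 5.50 log2 in WT, a difference of 1.18 (SE 0.54). Its partner Itgam, dim on these arrays, read 4.23, 4.72 and 4.75 log2 in Delta9 and 4.67, 3.83 and 2.81 log2 in WT. Itgax, a chain of dendritic cells and macrophages that is not in the marker list, was dim and read 3.83, 4.56 and 6.68 log2 in Delta9 and 4.32, 4.02 and 3.06 log2 in WT, a difference of 1.22 (SE 0.71). The groups overlapped for each of these 3 genes. None passed, and of the 7 measured chains 4 were higher and 3 lower, with 0 past the threshold (limma; 1 higher at an unadjusted p under 0.05, the dim Itgae). Itgae, a chain of epithelial-resident lymphocytes, read 2.96, 2.79 and 2.96 log2 in Delta9 and 2.35, 2.68 and 2.76 log2 in WT.

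Other structural adhesion proteins resembled the adaptors in their counts. Of 27 measured, 22 had lower values, with a median of -0.21. At the threshold 0 passed (limma), and 4 lower and 3 higher had an unadjusted p under 0.05. These were 25.9% of the list, against 10.6% of all genes and 12.9% of bright genes, which 23 of the 27 were. Without Delta9 replicate 3, 15 of the 27 were lower and the median was -0.11, and without WT replicate 3 the median was -0.13. With both left out, chosen after seeing the data, 14 of the 27 were lower and the median was -0.03. Svil, the membrane-to-actin linker supervillin, read 7.83, 7.90 and 7.89 log2 in Delta9 and 8.74, 8.40 and 8.58 log2 in WT. Delta9 replicate 3 did not stand apart here, and the difference was -0.70 (SE 0.13, adjusted p 0.185, limma). Sorbs2, an adaptor of actin and adhesion proteins, was dim, with 3.69, 3.29 and 4.36 log2 in Delta9 and 5.27, 4.40 and 4.77 log2 in WT, a difference of -1.03 (SE 0.32). Parvb, the beta-parvin that takes the place of alpha-parvin in the ILK complex, had higher values in Delta9, unlike Parva, with 6.16, 6.02 and 6.23 log2 in Delta9 and 5.70, 5.51 and 4.75 log2 in WT. The groups did not overlap, and its difference was 0.81 (SE 0.25, adjusted p 0.352, limma).

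Adhesion signalling genes did not share the lower values. Of 27 measured, 11 were lower and 16 higher, with a median of 0.06, and 0 passed (limma). At an unadjusted p under 0.05, 1 was lower and 2 were higher, or 11.1%, near the 10.6% of all genes. Grb2, the adaptor that links receptors to Ras, read 8.03, 8.18 and 8.36 log2 in Delta9 and 7.67, 7.60 and 7.34 log2 in WT. All 3 Delta9 samples were above all WT samples, and the difference was 0.65 (SE 0.15, adjusted p 0.246, limma). Ptprs, a receptor tyrosine phosphatase that binds proteoglycans, read 8.60, 8.98 and 9.02 log2 in Delta9 and 9.39, 9.51 and 9.86 log2 in WT, a difference of -0.72 (SE 0.18). Pak2, a kinase downstream of Rac and Cdc42, read 7.67, 7.47 and 7.59 log2 in Delta9 and 7.40, 7.19 and 7.14 log2 in WT, a difference of 0.33 (SE 0.14). The groups overlapped for neither.

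Of 20 measured matrix ligands of these receptors, 15 had lower values, with a median of -0.25. None passed (limma), and 5 lower and 1 higher had an unadjusted p under 0.05, or 30% against 10.6% of all genes. Among bright genes, which 18 of the 20 were, the share was 12.9%. Without Delta9 replicate 3 the median was -0.16, and with both replicates 3 left out it was -0.07, with 14 of the 20 lower. Fbln5, the RGD protein fibulin-5, read 8.96, 8.79 and 8.23 log2 in Delta9 and 9.59, 9.79 and 9.94 log2 in WT, a difference of -1.11 (SE 0.21, adjusted p 0.182, limma). Lama4, a laminin alpha chain, averaged 8.24 ± 0.21 log2 in Delta9 and 8.88 ± 0.22 log2 in WT (SD, n = 3 each), a difference of -0.63 (SE 0.17). Tgfb1, whose latent form binds alpha-v integrins, had higher values in Delta9, with 8.29, 8.13 and 8.29 log2 in Delta9 and 7.67, 7.89 and 7.71 log2 in WT, a difference of 0.48 (SE 0.13). For these 3 ligands the groups did not overlap. Npnt, the ligand of the receptor that holds the Itga8 chain, was dim and differed by 0.14 (SE 0.20).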

How the data were processed

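Per the labels' protocols, total RNA was taken with Trizol, labelled with biotin (Affymetrix One Cycle kit) and read on 6 arrays. The deposited table gives log2 values for 45101 probe sets; the log2 base was read from their range, and how the authors summarised, background-corrected and normalized them is not given in the sources used here. Gene names came from the platform annotation: 34945 probe sets had 1 symbol, 932 several and 9160 none, while 64 control probe sets entered no test. Sample groups came from the sample titles.

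All 18193 genes were fitted with limma 3.58.1 (R 4.3.3; lmFit, eBayes with a variance trend), Delta9 minus WT, without filter or pseudocount, and p-values were adjusted over all of them (Benjamini-Hochberg). SE is the moderated standard error. On simulated data with 200 of 18193 genes changed, the fit recovered 58% of changes of 1 log2 unit and 89% of those of 2. The simulated noise was independent between genes, with no shift shared by an array. In Delta9 the median SD was 0.33 log2 for the adaptors and discoidin receptors and 0.26 for the integrin chains, against 0.16 over all genes. In WT it was 0.20 and 0.21, against 0.16. The simulated shares may therefore be too high for these members. There were 3 arrays per group, which limits the precision, and the table has no detection calls. The members, lists and alternatives were chosen with earlier results of these data known. Values in every sample are given for the 10 members of lowest p, for central members chosen for their role and for Lmna. From the other lists they are given for genes among the 3 of lowest p, except Lama4, given as mean and SD. Further genes were picked with their values in view, Itgax among them. Alternatives were quantile normalization, median centring, leaving out the dimmest 33.3% of genes, the mean of probe sets, leaving out _x_at and _s_at probe sets, no trend, robust variances, array weights, the replicate block, the spike-in split, a threshold of 0.1 and leaving out samples. Figures were drawn with matplotlib 3.10.9.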

Additional observations from a re-analysis of the deposited data

How the results depend on the processing

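With 3 arrays a group, no detection calls and unknown normalization, small differences and dim genes are the least certain. The main count of 11 genes past the threshold was 139 with array weights, 149 with the spike-in split as a block, 61 in the 4 arrays of higher spike-in signal, 48 at an adjusted p under 0.1 and 1 to 81 when single replicates were left out, with 81 without Delta9 replicate 3. Leaving out Delta9 replicate 3 and WT replicate 3 together, chosen after seeing the data, gave 25, and a median of the adaptors and discoidin receptors of 0.047; with single replicates left out that median ran from -0.40 to -0.07. All 11 genes were among those past the threshold with array weights, with the spike-in block and without Delta9 replicate 3. Array weights put 1 member past the threshold, Itga8. Whether same-numbered samples were paired was not settled here. Their deviations from the group means correlated at -0.40, 0.17 and -0.43, and 3 such values cannot decide it. With the replicate block 0 genes passed (limma), with 818 lower and 530 higher at an unadjusted p under 0.05. The sign changes that follow are of differences that passed no test, and the cause was not tested. Median centring gave Zyx 0.0084. The mean of probe sets gave Itga9 0.0053, Itgb1 0.035, Tns1 0.033 and Lims1 0.074, and without _x_at and _s_at probe sets Lims1 was 0.76. Array weights gave Itga3 0.023, Itgb1 0.21, Tln2 0.14, Zyx 0.14, Ilk 0.017 and Lims1 0.043. The 4 arrays of higher spike-in signal gave Itgb1 0.26, Tln2 0.054, Zyx 0.11 and Lims1 0.14. Other probe sets gave Itga3 0.10, Itga5 -0.011, Itga8 0.075, Itgav 0.042 and 0.13, Itga4 -0.055, Itga9 0.094 and 0.0024, Itgb1 0.12, 0.14 and 0.23, Itgb3 -0.016, Itgb6 -0.016, Ddr1 0.27, Tln2 0.016, Fermt2 0.086, Vcl 0.11, Tns1 0.19 and 0.10, Pxn -0.0022 and Lims1 0.76. With replicates left out, both replicates 3 included, the ranges were Itga3 -0.31 to 0.093, Itga6 -0.14 to 0.59, Itga7 -0.023 to 0.64, Itga9 -0.18 to 0.037, Itgb1 -0.22 to 0.39, Itgb5 -0.28 to 0.074, Tln1 -0.068 to 0.23, Tln2 -0.52 to 0.62, Flna -0.47 to 0.087, Tns1 -0.34 to 0.049, Bcar1 -0.36 to 0.047, Zyx -0.23 to 0.42, Ilk -0.26 to 0.30 and Lims1 -0.22 to 0.14.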

Other observations

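Some further probe sets of the adhesion genes read lowest in WT replicate 3, and those of Lims1, Itga6 and Tns1 are given as examples. WT replicate 3 held the lowest value for 15.2% of all genes, so such probe sets occur without any link to adhesion. Whether they are more frequent among the adhesion genes was not tested. Lims1, which encodes PINCH-1, had 7.93, 8.19 and 7.53 log2 in Delta9 and 7.78, 7.88 and 5.71 log2 in WT on its second probe set, whereas its brighter probe set had 8.22, 8.43 and 7.70 log2 in Delta9 and 8.18, 8.25 and 8.11 log2 in WT. Itga6, a laminin-binding chain, had 7.44, 6.98 and 7.27 log2 in Delta9 and 7.17, 6.61 and 5.11 log2 in WT on its second probe set, and its brighter one was also lowest in WT replicate 3, at 6.68 log2. For Tns1, tensin 1, the second probe set had 8.27, 8.12 and 8.38 log2 in Delta9 and 8.64, 8.23 and 7.32 log2 in WT. The second probe set of Ddr2 was lowest in Delta9 replicate 1, at 7.46 log2, with WT replicate 3 next, at 7.53 log2. These genes were chosen after their values were seen. Of 57 further probe sets of the members 36 had the sign of the probe set used, and of the 24 bright ones 18 did.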
